A study of Mus musculus with 2 samples.

Results

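Sodium channel genes were followed in RNA of left cerebral cortex, taken from male mice 4 days old. The mice were of the strain B6CASTF1/J, a first-generation hybrid between C57BL/6 and CAST, and carried no treatment or engineered allele that the labels name. The 2 libraries, labelled biological replicates 1 and 2, each held total RNA from a tissue sample of its own, and the labels number the males separately. There was no second condition, so the comparisons run between genes, between transcripts and between the 2 libraries. The 9 genes, of 55536 annotated in the table, were taken by name. They were the alpha subunit genes Scn1a, Scn2a, Scn3a, Scn8a and Scn9a, the beta subunit genes Scn2b, Scn3b and Scn4b, and the sodium leak channel gene Nalcn.

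The alpha subunit of a voltage-gated sodium channel forms the pore and carries the voltage sensors, and it starts and carries the action potential of neurons. Beta subunits are membrane proteins with an immunoglobulin-like outer domain that bind the alpha subunit and change its gating and its place in the membrane. Nalcn is a related channel that passes a steady sodium leak and helps to set the resting potential. In rodents, transcripts of several alpha subunit genes use either of a pair of neighbouring exons that encode part of a voltage sensor of the first domain, and the upstream exon is known as the neonatal form and the downstream exon as the adult form.

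Replicate 1 had a depth of 26897687 expected counts, which are reads assigned by the authors' quantification, and replicate 2 of 29511737. These totals include spike-in sequences, and annotated genes held 26810772 in replicate 1 and 29408234 in replicate 2. All 9 listed markers of excitatory cortical neurons reached 1 TPM in both libraries (TPM is a length-corrected share of the RNA molecules measured in a library), with a summed level of 893 TPM in replicate 1 and 802 TPM in replicate 2. Oligodendrocyte precursor markers (281 and 264 TPM) and endothelial and mural markers (126 and 113 TPM) also had higher sums in replicate 1. The other marker lists had higher sums in replicate 2. Striatal markers summed to 96.4 TPM in replicate 1 and 157 TPM in replicate 2, and interneuron markers to 384 and 489 TPM. Red blood cell markers summed to 215 and 456 TPM, and olfactory bulb output neuron markers to 118 and 159 TPM. Most of the olfactory bulb sum came from Reln (88.38 and 98.8 TPM) and Slc17a6 (21.97 and 22.88 TPM). In the same list Cdhr1 had 5.73 and 29.31 TPM, Eomes 1.62 and 6.19 TPM, and Tbx21 0.1 and 1.8 TPM. In bulk tissue, fewer cells of a type and less RNA per cell cannot be told apart.

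The exon pair was found in the annotation of 4 of the 5 alpha subunit genes, Scn2a, Scn3a, Scn8a and Scn9a, and none was found for Scn1a. The downstream exons are printed because the choice between the exons of a pair is the isoform result described further on. Each exon was 92 bases long. The sequences are given 5′ to 3′ on the strand of the gene, as in the GENCODE M21 transcripts (mm10), and capitals mark the bases at which the downstream exon differs from the upstream exon of the same gene.
Scn2a downstream exon (chr2:65682690-65682781, plus strand): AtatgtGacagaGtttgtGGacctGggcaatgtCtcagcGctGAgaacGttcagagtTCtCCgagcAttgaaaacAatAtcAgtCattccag
Scn3a downstream exon (chr2:65525695-65525786, minus strand): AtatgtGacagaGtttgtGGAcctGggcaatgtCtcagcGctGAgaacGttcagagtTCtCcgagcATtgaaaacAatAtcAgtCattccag
Scn8a downstream exon (chr15:100959603-100959694, plus strand): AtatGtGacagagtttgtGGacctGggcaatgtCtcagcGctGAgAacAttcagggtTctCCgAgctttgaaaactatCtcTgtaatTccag
Scn9a downstream exon (chr2:66563336-66563427, minus strand): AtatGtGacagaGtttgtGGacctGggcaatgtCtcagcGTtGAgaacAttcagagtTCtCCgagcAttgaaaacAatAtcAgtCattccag

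Within a gene the exons of a pair differed at 20 bases in Scn2a, 21 in Scn3a, 19 in Scn8a and 22 in Scn9a. The upstream exons were more alike across genes, and so were the downstream exons. The upstream exons of Scn2a and Scn9a differed at 1 base, those of Scn2a and Scn3a at 3, and those of Scn2a and Scn8a at 10. The downstream exons of Scn2a and Scn3a were identical over all 92 bases, those of Scn2a and Scn9a differed at 2 bases, and those of Scn2a and Scn8a at 7. The intron between the exons of a pair was 95 bases in Scn2a, 90 in Scn3a, 171 in Scn8a and 112 in Scn9a.

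Levels in TPM correct for transcript length and so can be set side by side between genes. They are means ± SD over the 2 libraries, from the gene table unless the other quantification is named. This gene table and its transcript table are called alignment-based here, as a label only, since the sources used do not name the quantifiers. A further set of transcript estimates from the same libraries, called here the other quantification, gave the same order of the 9 genes. The members spanned levels of 0.475 ± 0.177 TPM for Scn4b to 111 ± 3.60 TPM for Scn2a, and 13084 protein-coding genes reached 1 TPM in both libraries, with a median mean level of 17.6 TPM. Scn2a, Scn3b, Scn8a and Scn3a stood above that median in both libraries. Of the 8 steps in the order of levels, 3 (Scn8a to Scn3a, Nalcn to Scn1a and Scn2b to Scn9a) were smaller than the summed SDs of their 2 genes in the alignment-based table. In the other quantification the steps from Scn8a to Scn3a (21.1 TPM, summed SDs 9.64 TPM) and from Nalcn to Scn1a (5.48 TPM, summed SDs 5.20 TPM) exceeded theirs, and the step from Scn2b to Scn9a (0.293 TPM, summed SDs 3.77 TPM) did not.

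**Figure D1:**
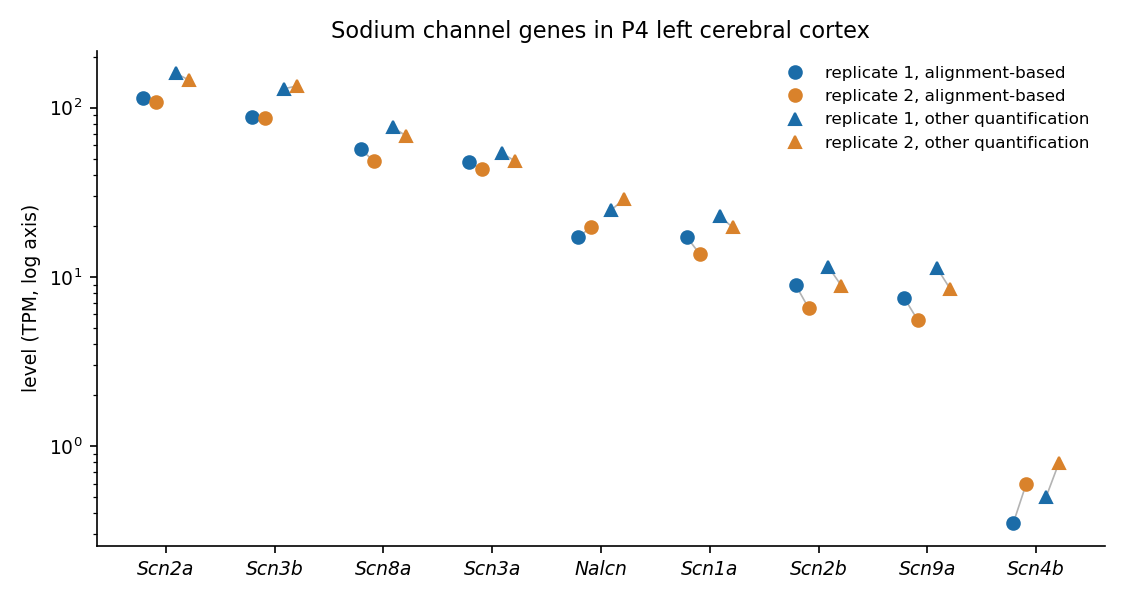
Level in TPM on a log axis for the 9 genes, with circles for the alignment-based gene table, triangles for the other quantification, blue for replicate 1 and orange for replicate 2. Scn2a is highest, with 113.23 and 108.14 TPM in the alignment-based table, Scn4b is lowest, with 0.35 and 0.60 TPM, and the triangles lie above the circles for each gene.

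Scn2a, which encodes Nav1.2, an alpha subunit of excitatory neurons and their early axons, led the alpha subunits. It had 113.23 TPM in replicate 1 and 108.14 TPM in replicate 2 from 12671 and 13534 counts (ENSMUSG00000075318.12, chr2:65620771-65767447, plus strand). It ranked 854th among the detected protein-coding genes. Its share of the summed alpha subunit TPM was 46.8% in replicate 1 and 49.4% in replicate 2, or 48.1 ± 1.81%. This share was 49.8 ± 0.646% in the other quantification and 49.6 ± 1.42% of the expected counts.

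Scn8a encodes Nav1.6, the alpha subunit that dominates mature axon initial segments and nodes. It had 56.67 TPM in replicate 1 and 48.55 TPM in replicate 2 (ENSMUSG00000023033.14, chr15:100869858-101045938, plus strand), a share of 22.8 ± 0.892% of the alpha subunit TPM. Scn3a encodes Nav1.3, the alpha subunit known for its prenatal and neonatal expression in the rodent brain. It had 47.39 and 43.19 TPM in replicates 1 and 2 (ENSMUSG00000057182.14, chr2:65457118-65567627, minus strand), a share of 19.7 ± 0.0900%. The levels of Scn8a and Scn3a did not overlap between the genes, but in the alignment-based table their gap of 7.32 TPM was below the sum of their SDs, 8.71 TPM. The log2 ratio of the pair within each library, given with the other pairs, exceeded 2 SD. By expected counts, which do not divide by length, the order was reversed, with shares of 20.3 ± 0.275% for Scn3a and 19.8 ± 0.583% for Scn8a. The order was also reversed over transcripts with a complete coding sequence, in both quantifications. Those transcripts held 49.1 ± 1.61% of the Scn8a TPM and 72.8 ± 0.793% of the Scn3a TPM.

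Scn1a encodes Nav1.1, an alpha subunit important in inhibitory interneurons. It had 17.14 TPM in replicate 1 and 13.58 TPM in replicate 2 (ENSMUSG00000064329.13, chr2:66270778-66440840, minus strand), a share of 6.64 ± 0.626%. Scn9a encodes Nav1.7, known chiefly from peripheral sensory and sympathetic neurons. Its level was 7.46 and 5.57 TPM from 963 and 833 counts (ENSMUSG00000075316.11, chr2:66480080-66634962, minus strand), a share of 2.81 ± 0.383%. The listed markers of sensory neurons and muscle were low, with 3 of 6 at 1 TPM or more in both libraries and sums of 7.57 and 9.61 TPM. Their part in the Scn9a level was not tested.

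The ratios between members kept their sign in both libraries. A pair was called when both libraries gave the same sign and the mean log2 ratio of TPM + 0.1 exceeded 2 SD. All 9 pairs examined were called, and an exact sign test over 2 samples cannot give a p below 0.5, so no p is attached. Scn2a exceeded Scn1a by a log2 ratio of 2.85 ± 0.19, which is 7.21-fold. It exceeded Scn3a by 1.29 ± 0.05 and Scn8a by 1.08 ± 0.11. The neonatal subunit gene Scn3a over Scn9a gave 2.79 ± 0.20, and Scn3a over Scn8a gave -0.21 ± 0.06. The sign of Scn3a over Scn8a holds for gene-level TPM only, since expected counts and complete coding transcripts gave the reverse order. Across alpha subunits and the leak channel, Scn2a over Nalcn gave 2.58 ± 0.19.

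Of the beta subunits, Scn3b, whose product binds the alpha subunit without a covalent bond, carried nearly all of the TPM. Scn3b had 88.04 TPM in replicate 1 and 86.70 TPM in replicate 2 (ENSMUSG00000049281.16, chr9:40269217-40291618, plus strand), the smallest relative spread of the 9 genes. Scn2b and Scn4b encode the beta subunits that form a disulfide bond with the alpha subunit. Scn2b had 8.93 and 6.51 TPM from 672 and 555 counts (ENSMUSG00000070304.12, chr9:45117782-45130070, plus strand), and its libraries lay further apart than those of Scn3b. Scn4b had 0.35 TPM in replicate 1 and 0.60 TPM in replicate 2 (ENSMUSG00000046480.6, chr9:45138395-45154152, plus strand), so it was the only member below 1 TPM.

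Scn3b held 90.5% of the summed TPM of the 3 beta subunits in replicate 1 and 92.4% in replicate 2, or 91.4 ± 1.38%. Scn2b held 8.06 ± 1.58% and Scn4b 0.50 ± 0.198%. By expected counts, which do not divide by length, the share of Scn3b was 88.8 ± 1.55%. The log2 ratio of Scn3b over Scn2b was 3.50 ± 0.30, and that of Scn3b over Scn4b was 7.28 ± 0.47, or 5.91 with a pseudocount of 1 in place of 0.1. Scn4b rested on 29 counts in replicate 1 (95% Poisson interval 19.4 to 41.6) and 56 in replicate 2 (42.3 to 72.7), and these intervals cover counting error only.

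Nalcn had 17.15 TPM in replicate 1 and 19.66 TPM in replicate 2 (ENSMUSG00000000197.8, chr14:123276634-123627144, minus strand). Its level of 18.4 ± 1.77 TPM exceeded that of Scn1a by 3.05 TPM, less than the 4.29 TPM of their summed SDs, whereas in the other quantification the gap exceeded the summed SDs. The genes of its channel complex were all detected. Fam155a and Tmem28 encode related membrane proteins of the complex, and Unc79 and Unc80 encode its large intracellular partners. Fam155a stood at 42.2 ± 0.0707 TPM, Unc80 at 20.5 ± 0.997 TPM, Unc79 at 20.5 ± 1.70 TPM and Tmem28 at 5.99 ± 1.35 TPM.

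Scn11a and Scn4a, alpha subunit genes known chiefly from other tissues, stood below 1 TPM in both libraries. The sensory neuron gene Scn11a had 0.12 TPM in replicate 1 and 0.16 TPM in replicate 2, and the muscle gene Scn4a had 0.02 and 0.04 TPM.

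All 15 listed genes of the axon initial segment and of channel-binding proteins were detected. Among the highest were Calm2, at 971 ± 3.39 TPM, and Calm3, at 636 ± 27 TPM, which encode the calcium sensor calmodulin. Fgf11, a member of the intracellular fibroblast growth factor family that binds the tail of the alpha subunit, was lowest at 12.7 ± 2.98 TPM. Fgf11 still stood above Scn2b and Scn9a in each library.

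Scn3a, Scn2a, Scn1a and Scn9a lie together on chromosome 2 within 1177.845 kb. The highest and the lowest of the 5 alpha subunit members were both in this cluster. Scn2a and Scn3a are neighbours that face opposite ways, and their levels were 111 ± 3.60 and 45.3 ± 2.97 TPM. Csrnp3, a nuclear protein gene between Scn2a and Scn1a, had 71.1 ± 4.96 TPM, whereas Galnt3, a glycosyltransferase gene next to it, had 1.85 ± 0.601 TPM. Scn7a, the sodium channel family gene just outside the span, had 0.08 and 0.09 TPM. Genes annotated over or within the members were low, each at 0.46 TPM or less in either library.

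**Figure D2:**
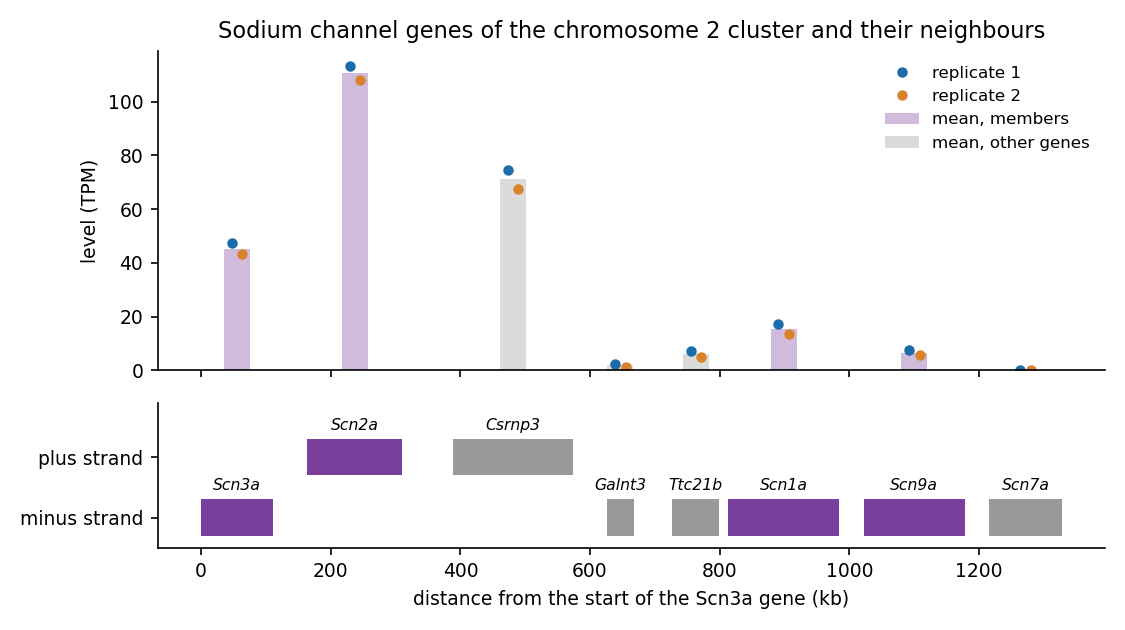
Levels (upper panel, TPM, bars for the mean of the 2 libraries and points for each library) of sodium channel genes and neighbours on chromosome 2, placed by distance in kb from the start of Scn3a, with gene spans by strand in the lower panel. Scn2a is the tallest bar at 111 TPM, Csrnp3 reaches 71.1 TPM, and Scn7a at the right end is near 0.

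In Scn2a, transcripts with the upstream exon made up most of those with either exon. They carried 72.33 TPM in replicate 1 and 66.14 TPM in replicate 2, against 26.32 and 26.90 TPM for transcripts with the downstream exon. The upstream share was 73.3% in replicate 1 and 71.1% in replicate 2, or 72.2 ± 1.58%, and 71.8 ± 1.40% in the other quantification. Over complete coding transcripts alone it was 85.8 ± 2.60% in the alignment-based table and 72.6 ± 2.42% in the other quantification. That restriction was chosen after the values were seen. Both forms encode 2005 codons, with 69.2 ± 4.38 TPM for the coding sequence with the upstream exon and 11.4 ± 1.72 TPM for the one with the downstream exon (84.7 and 31.9 TPM in the other quantification).

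In Scn9a nearly all of the TPM fell on the upstream exon, with 5.69 and 4.54 TPM, against 0.38 and 0 TPM for the downstream exon. The upstream share was 93.7% in replicate 1 and 100% in replicate 2. The downstream exon is annotated in 1 complete transcript only, Scn9a-207, which was listed at 0 in replicate 2 with a deposited upper bound of 0.775 TPM. The files do not name the level of that interval. In the other quantification the upstream share was 97.6 ± 3.33%.

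Scn8a gave shares that differed between the quantifications. Transcripts with the upstream exon carried 16.58 TPM in replicate 1 and 14.71 TPM in replicate 2, and those with the downstream exon carried 23.87 and 17.82 TPM. The upstream share was thus 41.0% and 45.2%, or 43.1 ± 2.99%, below that of the downstream exon in both libraries. In the other quantification it was 56.4 ± 1.37%, above that of the downstream exon in both libraries. Over complete coding transcripts it was 12 ± 13.8% in the alignment-based table and 39.7 ± 3.79% in the other quantification. The quantifications assigned reads differently among Scn8a transcripts. Scn8a-205, with the downstream exon, held 3278 and 3021 counts in the alignment-based table and 496 and 758 in the other. Scn8a-201, with the upstream exon, held 0.04 and 237 counts in the alignment-based table and 1892 and 2217 in the other.

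The annotation limits what can be said of Scn3a. Its upstream exon stands only in Scn3a-203, a fragment of 365 bases open at its ends, while both complete transcripts hold the downstream exon. The fragment was given 40.7 and 46.1 counts, or 8.99 TPM in each library, so the upstream share was 20.6% in replicate 1 and 22.4% in replicate 2. The other quantification listed the fragment at 0 in both libraries, a share of 0%. A read inside the downstream exon alone cannot be told apart between Scn2a and Scn3a, since their 92 bases are identical.

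**Figure D3:**
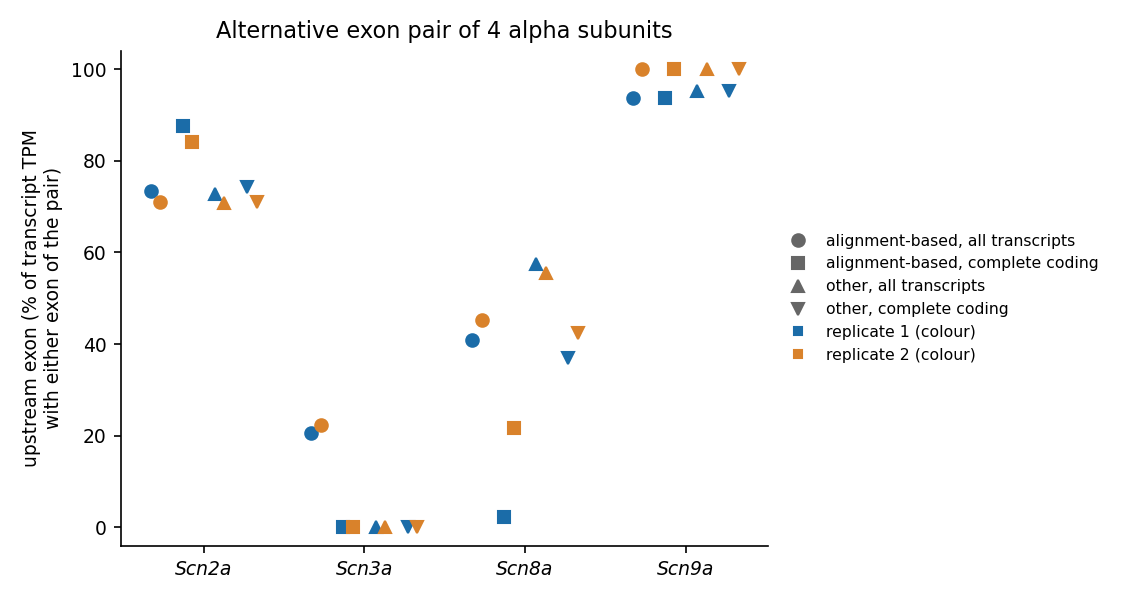
Share of the upstream exon in percent of the TPM of transcripts with either exon of the pair, for Scn2a, Scn3a, Scn8a and Scn9a, by quantification and by set of transcripts (marker shape) and by library (colour). Over both libraries Scn2a stays between 70.8% and 87.7% and Scn9a at 93.7% or more, while Scn8a runs between 2.25% and 57.4%.

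Sequence shared between genes bears on how reads were divided among them. The distinct 31-base words in the annotated transcripts of each member were sought in all other genes, members or not, on either strand. The share found there was 9.57% in Scn3a, 9.16% in Scn2a, 7.29% in Scn1a and 6.23% in Scn9a. Scn2a and Scn3a had 822 words in common, the most of any pair of members. Scn3a and Scn9a had 599, and Scn1a and Scn2a had 550. For Scn8a, on another chromosome, the share was 0.528%, and for Scn3b and Nalcn it was 0.341% and 0.630%. Scn4b had none.

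Cassette exons with a stop codon were examined next, since such exons lead a transcript to nonsense-mediated decay. They are printed with the stop codon in capitals where it lies within the exon. In Scn1a the 64-base exon shifts the frame, so its stop lies outside it, and the first stop begins at base 193 counted from the first base of the exon.
Scn1a exon of Scn1a-208 (chr2:66293832-66293895, minus strand): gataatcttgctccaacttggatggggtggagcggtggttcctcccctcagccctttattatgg
Scn2a exon of Scn2a-207 (chr2:65718938-65719030, plus strand): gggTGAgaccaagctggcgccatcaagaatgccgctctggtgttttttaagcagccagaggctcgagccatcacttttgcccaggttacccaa
Scn8a exon of Scn8a-209 (chr15:101023839-101023906, plus strand): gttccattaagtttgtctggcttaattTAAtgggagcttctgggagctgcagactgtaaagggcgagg

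The Scn1a exon is known as a poison exon, whose inclusion lowers functional Nav1.1. The transcript with it stood at 1.26 TPM in replicate 1 and 0.77 TPM in replicate 2, against 11.43 and 10.48 TPM for transcripts that skip it. Inclusion was 9.93% and 6.84%, or 8.39 ± 2.18%, and 13.0 ± 0.299% in the other quantification. Decay removes such transcripts, so an inclusion read from steady levels is not the rate at which the exon is spliced in.

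In Scn2a the stop begins at base 4 of the exon. The form of 84 bases was included in 0.663 ± 0.238% of the TPM, from 3.37 and 6.09 counts, and in 5.28 ± 2.18% in the other quantification. The longer form of 93 bases was listed at 0 in both libraries in the alignment-based table, against 2.97 ± 2.62% in the other quantification.

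In Scn8a the exon of 68 bases holds a stop that begins at base 28. It is known from non-neuronal and embryonic tissue, where its use gives a truncated protein. Scn8a-209, the transcript with this exon, stood at 1.82 and 1.47 TPM, and Scn8a-208, which skips the exon, at 0.44 and 0.51 TPM. Transcripts with the coding exon of 123 bases at this site (chr15:101024261-101024383) carried 23.98 TPM in replicate 1 and 22.25 TPM in replicate 2. The coding exon was included in 98.0 ± 0.310% of the TPM when only Scn8a-208, which joins the flanking exons directly, was counted as skipping it. Scn8a-209, which holds the 68-base exon in place of the coding exon, is outside that share. Counting Scn8a-209 as well would lower the share of the coding exon at this site. In the other quantification Scn8a-209 stood at 6.02 and 4.46 TPM, and transcripts with the coding exon at 36.4 and 34.1 TPM.

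A further choice falls at exon 12 of the transcript with the longer form in Scn1a, Scn8a and Scn9a, where an alternative donor site lengthens the exon by a multiple of 3 bases.

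In Scn1a the longer form carried 7.23 TPM in replicate 1 and 7.39 TPM in replicate 2, against 4.2 and 3.09 TPM for the form without the 33 bases. Its share was 66.9 ± 5.13%, and 56.8 ± 2.88% in the other quantification. In Scn9a the share of the longer form was 62.5 ± 9.64%, and 34.8 ± 9.02% in the other quantification, so the quantifications disagree on which form leads. In Scn8a the form with the added 30 bases was the minor one in both, at 18.8 ± 3.35% and 22.4 ± 11.1%. These donor sites were looked for after the transcript levels were seen.

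The members also differed in how much of their TPM fell on transcripts with a complete coding sequence. That share was 72.8 ± 0.0334% for Scn2a, 72.8 ± 0.793% for Scn3a, 71.9 ± 7.47% for Scn1a and 81.4 ± 0.0996% for Scn9a. For Scn8a, with 20 annotated transcripts, it was 49.1 ± 1.61%, although complete transcripts took 87.8 ± 1.94% of its counts. Short fragments weigh more in TPM than in counts because TPM divides by length. Nalcn gave 79.4 ± 2.64%, with its single complete transcript at 13.29 and 15.97 TPM, and Scn3b gave 77.9 ± 1.37%. Scn2b and Scn4b have only complete transcripts in the annotation.

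Among the beta subunits, Scn3b transcripts with the full coding sequence of 214 codons carried 66.54 TPM in replicate 1 and 63.62 TPM in replicate 2, against 2.89 and 3.07 TPM for the form of 174 codons. The 3 transcripts with the full coding sequence were divided differently by the quantifications. Scn3b-202 had 24.29 and 17.67 TPM in the alignment-based table and 2.15 and 1.48 TPM in the other. Nalcn used 2 coding exons of 168 bases in 97.3 ± 0.0308% of the TPM of transcripts that hold or skip them.

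**Figure D4:**
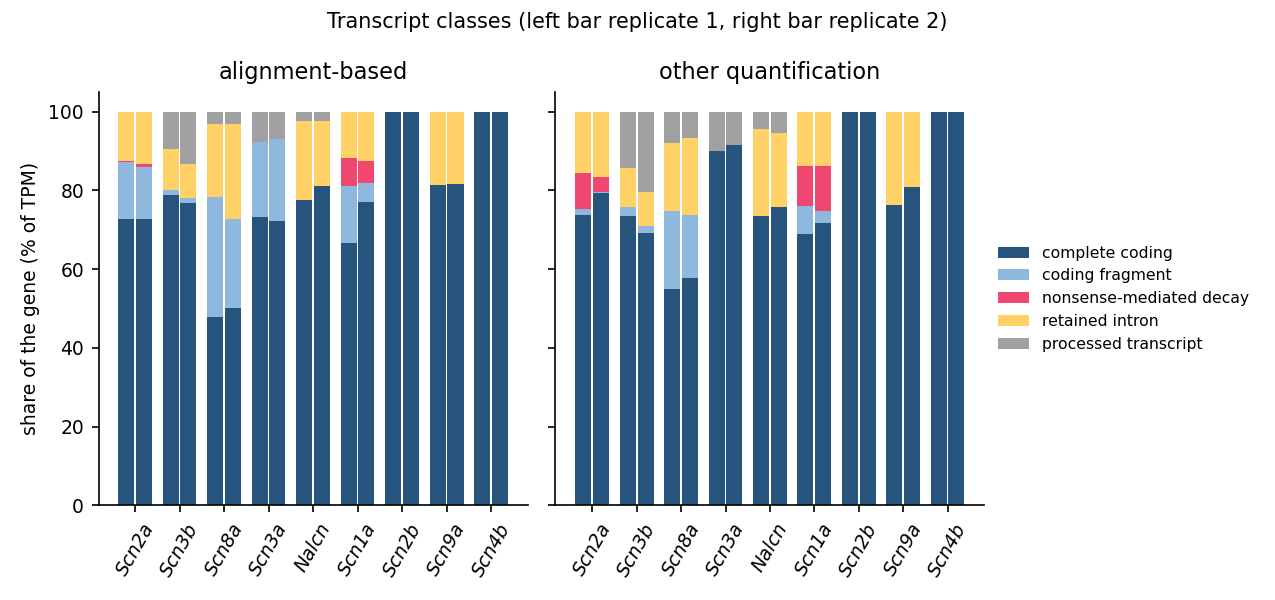
Share of each gene's TPM by transcript class in percent, alignment-based on the left and the other quantification on the right, with the left bar of each pair for replicate 1 and the right bar for replicate 2. On average, complete coding transcripts make up 49.1% of Scn8a, 71.9% to 81.4% of the other genes with several classes, and 100% of Scn2b and Scn4b in the alignment-based table.

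Between the 2 libraries, 6 of 9 members passed an exact binomial test on the expected counts (two-sided, Benjamini-Hochberg adjusted p under 0.05 over 20385 genes), where 26.7% of all genes tested passed. Among the genes with at least 1227 counts over both libraries, the number held by Scn2b, 46.1% passed. The test compares these libraries and not conditions, and its p-values take in counting error but no spread between animals. Of the members called, 4 were higher in replicate 1 and 2 were higher in replicate 2, where 12.7% and 13.9% of all genes were called in those directions. Of the 15 axon initial segment and partner genes, 4 were called higher in replicate 1 and 6 higher in replicate 2, none by 1.5-fold or more. The median log2 ratio of replicate 1 over replicate 2 was 0.10 over the members and 0.0026 over all genes tested.

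Scn2b was higher in replicate 1 by a log2 ratio of 0.38 (SE 0.0827, adjusted p = 4.58e-05, exact binomial test), and Scn9a by 0.31 (SE 0.0682, adjusted p = 5.00e-05). Scn8a and Scn3a were higher by smaller steps, with 0.13 (SE 0.0283, adjusted p = 6.30e-05) and 0.10 (SE 0.0279, adjusted p = 0.00396). For Scn3a the call was lost in the other quantification (adjusted p = 0.0643). Scn2a gave 0.0093 (SE 0.0178) and Scn3b -0.017 (SE 0.0283), with adjusted p of 0.783 and 0.734 in the exact binomial test. Their 95% counting intervals ran from -0.03 to 0.04 and from -0.07 to 0.04.

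Scn1a gave 0.11 (SE 0.0477) and missed the threshold in the exact binomial test (adjusted p = 0.0632), and it passed under total-count scaling (adjusted p = 0.0145) and among protein-coding genes alone (adjusted p = 0.0184). Its TPM differed more than its counts, by 0.34 on the log2 scale. The effective length that the gene table lists for Scn1a was 6279 bases in replicate 1 and 6963 bases in replicate 2. The short fragment Scn1a-206 had 2.47 TPM in replicate 1 and 0.64 TPM in replicate 2.

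Nalcn and Scn4b were higher in replicate 2. Nalcn had a log2 ratio of -0.31 (SE 0.0453, adjusted p = 3.00e-10, exact binomial test). The ratio of its partner gene Fam155a, also called, was -0.14 (SE 0.0432) by counts. By TPM Fam155a was nearly level, with 42.27 TPM in replicate 1 and 42.17 TPM in replicate 2. The partner genes Unc79, at 0.11 (SE 0.0387), and Tmem28, at 0.39 (SE 0.101), were called in the opposite direction. Unc80, at 0.03 (SE 0.0401), was not called. Scn4b, known in the mouse brain from striatal neurons among others, had a log2 ratio of -0.83 (SE 0.328, adjusted p = 0.0464), and its call was lost without a count filter (adjusted p = 0.0647) and in the other quantification (adjusted p = 0.0543).

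The listed markers of several cell types moved the same way as Nalcn and Scn4b. All 8 striatal markers were called higher in replicate 2, with a median log2 ratio of -0.80, and so were all 5 olfactory bulb output neuron markers, with a median of -1.92. Of 9 interneuron markers tested, 8 were called higher in replicate 2. So were 5 of 6 astrocyte markers and all 5 red blood cell markers. Over all genes tested, 13.9% were called in that direction. Excitatory cortical neuron and oligodendrocyte precursor markers were mixed, with 3 called higher in replicate 1 and 2 in replicate 2 in each list. Of 6 endothelial and mural markers, 2 were called, both higher in replicate 1, and no microglia marker was called. None of the listed markers of these types was at 0 in both libraries. Their part in the ratios of the members was not tested.

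**Figure D5:**
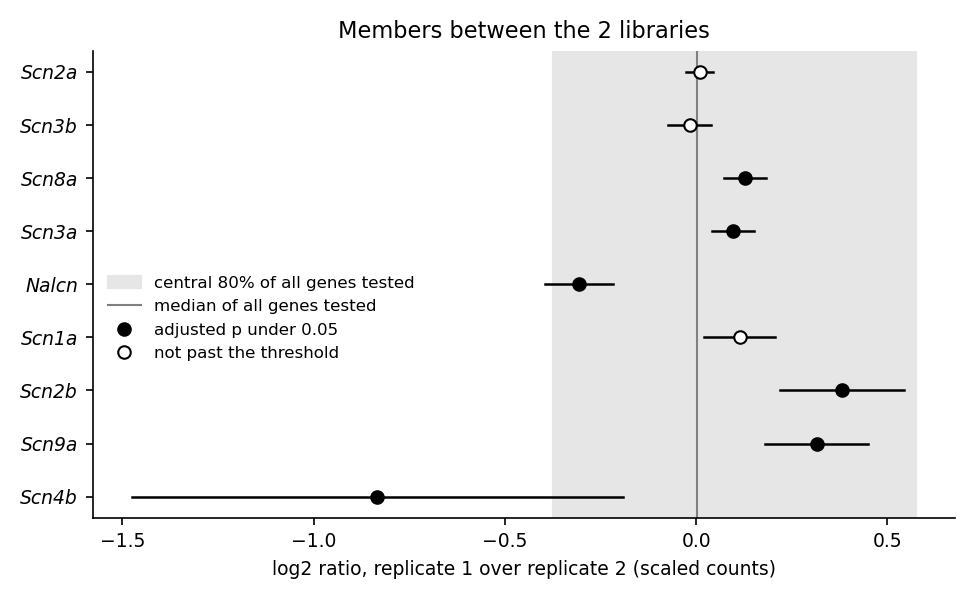
Log2 ratio of replicate 1 over replicate 2 for each gene from scaled expected counts, with 95% counting intervals, filled points for an adjusted p under 0.05 and open points otherwise. The line marks the median of all 20385 genes tested and the grey band their central 80%, from -0.37 to 0.57, and Scn4b at -0.83 lies outside the band. Among genes with at least 1227 counts the central 80% ran from -0.21 to 0.19, and Scn2b, Scn9a and Nalcn lie outside that range.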

How the data were processed

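Each library came with 1 gene table and 2 transcript tables. The authors' gene table and 1 of the transcript tables give, per the file headers, expected counts, TPM, posterior mean TPM and bounds of a TPM interval. The deposited interval bounds were taken as scores, as the authors list them, since the files do not name their level. The other transcript table, deposited by the authors, gives estimated counts and TPM. The deposited notes name mm10 and GENCODE M21. The sources used here do not give the aligner, the quantifiers or strand settings, and alleles were not told apart. Transcripts, exons and sequences are those of M21, and all 55536 identifiers matched it. The members and lists were chosen with earlier results of these data known.

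Spike-in rows (0.323% and 0.351% of the counts) and 26248 rows named by a number stayed out. Expected counts were rounded to whole numbers, scaled with TMM factors (edgeR 4.0.16, R 4.3.3), and tested per gene with a two-sided exact binomial test (scipy 1.17.1) over genes with 10 or more counts. Log2 ratios used a prior count of 0.5. No model with a spread between animals could be fitted to a contrast, since there is 1 group. DESeq2 1.42.0 size factors, total counts, no count filter, protein-coding genes alone and the other quantification were the alternatives. An exon pair is a pair of annotated exons of similar length (within 10%) that share flanking exons and are never together in a transcript. All 9 members are named in full, and of each related list the 3 highest, the lowest and each one called with a ratio of 1.5 or more; further genes named were chosen after their values were seen. Some listed genes and sequences are not reported here. The labels call the libraries biological replicates, from separately numbered males.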

Additional observations from a re-analysis of the deposited data

How the results depend on the processing

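The number of members called between the libraries was 6, and it ran from 4 (the other quantification) to 7 (total-count scaling, and protein-coding genes alone). All 9 gene pairs stayed called with a pseudocount of 1, with none, with posterior mean TPM and in the other quantification. Each of these settings uses gene-level TPM, and the order of Scn3a and Scn8a was reversed by expected counts and over complete coding transcripts. The median level of the members, 18.4 TPM, was 26.7 TPM in the other quantification and 34.7 TPM when TPM was recomputed over protein-coding genes only, and it ran from 17.2 to 19.7 TPM when 1 library was left out. The Scn3b share of the beta subunits was 88.8% of expected counts. The upstream exon share of Scn3a, 21.5%, was 0% in the other quantification. That of Scn8a, 43.1%, was 56.4% in the other quantification, 12% over complete coding transcripts and 39.7% over those in the other quantification, and that of Scn2a, 72.2%, was 85.8% over complete coding transcripts. The restriction to complete transcripts was added after the data were seen. With 1 library left out, the upstream share ran from 71.1% to 73.3% in Scn2a, 20.6% to 22.4% in Scn3a, 41.0% to 45.2% in Scn8a and 93.7% to 100% in Scn9a, the Scn2a share of the alpha subunits from 46.8% to 49.4%, and the Scn3b share of the beta subunits from 90.5% to 92.4%. The causes of these shifts were not tested. No paired analysis was possible because there is 1 group.

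With 2 libraries of 1 group, no difference between conditions, ages or sexes can be read from these data. Depth limits Scn4b and the rarer transcripts, such as Scn9a-207, Scn2a-208 and Scn8a-209. Short reads were divided among transcripts by the authors' models, so shares of near-identical transcripts rest on those models. How fully reads of the CAST allele were counted was not tested.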
